A study of Mus musculus with 9 samples.

Results

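JAK kinases and STAT factors carry signals from cytokine receptors to the nucleus. The members followed here are the kinases Jak1, Jak2 and Tyk2 and the transcription factors Stat2, Stat3, Stat4, Stat5a, Stat5b and Stat6. They were chosen by name, and they are 9 of the 54059 genes in the deposited table. Every member name matched a single gene of the GENCODE M21 annotation.

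Mice were injected with starch broth, and the cells that adhered after a peritoneal wash were cultured as macrophages. The data hold 3 groups of 3 libraries. Wild-type (WT) cells and cells of M-Shp2-/- mice were stimulated with imiquimod (IMQ), a TLR7 agonist, for 4 h. The group named SHP099 consists of wild-type cells that received SHP099, an allosteric inhibitor of the phosphatase SHP2, at 10 µM for 2 h before IMQ at 10 µg/ml. The mice are labelled C57BL/6 with an age of 8 weeks, and the genotype of the knockout is labelled SHP2lyz2-/-. M-Shp2-/- mice carry a floxed Shp2 gene and a Lyz2-cre transgene, which is active in monocytes, mature macrophages and granulocytes. IMQ, the doses and the times are known from the methods and figure legends of the study, since the labels name SHP099 but no stimulus. No unstimulated group is part of these data, and it is not stated whether the wild-type mice carried the Cre transgene. The labels do not say whether the 3 libraries of a group came from separate mice, so that p values measure the spread between these libraries, which may be technical.

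When a cytokine binds its receptor, JAK kinases bound to the receptor phosphorylate it and then the STAT proteins, which pair, enter the nucleus and bind DNA. In macrophages, JAK1 and TYK2 act with STAT2 below the type I interferon receptor, JAK1 with STAT3 below the receptors for IL-6 and IL-10, JAK2 with STAT5 below the GM-CSF receptor, and JAK1 with STAT6 below the IL-4 receptor. Cytokines that macrophages release after TLR7 is engaged can act on the same cells, and SOCS proteins and CISH, themselves products of STAT target genes, dampen the pathway.

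Values are FPKM, fragments scaled by gene length and by the reads of the library, and depth could be read from them because they fall on whole reads. The WT libraries 1 to 3 held 44371145, 50979545 and 42530178 reads. The M-Shp2-/- libraries held 43181863, 41150651 and 45589720 reads. The SHP099 libraries held 43891742, 39841813 and 43835538 reads. The members were covered by 29 to 36399 reads in a library, with the fewest for Stat4 and the most for Jak2. Counting error relative to the level is therefore largest for Stat4. It was not compared with the spread between libraries for single members.

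Several libraries stood apart within their group, and the genes that show it here were chosen after their values were seen. Itgax, which codes for CD11c, had an FPKM of 162, 77.8 and 54.9 in WT, 199.6, 267 and 13.5 in M-Shp2-/-, and 14.9, 19.5 and 20.2 in SHP099. M-Shp2-/- 1 and 2 were the highest libraries, and M-Shp2-/- 3 lay below all others, next to SHP099. In WT 3, Ifng was at 38.8, against 5.06 in WT 1 and 11.9 in WT 2. Ifng was at 0.701, 1.35 and 2.21 in M-Shp2-/- and at 0.460, 1.01 and 4.34 in SHP099. All WT libraries thus lay above both other groups, though Ifng did not pass the test in either comparison with WT. The chi-square per degree of freedom between recovered reads was 19.6 for M-Shp2-/- 1 and 2, but 166 and 213 for the pairs with M-Shp2-/- 3, and 82.2 to 142 for the WT pairs. The SHP099 libraries were closer to each other, at 25.9 to 44.9.

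Markers of macrophages were abundant in all 9 libraries, with summed FPKM of 10420, 13421 and 11189 in WT, 7595, 7468 and 8412 in M-Shp2-/-, and 11778, 13005 and 13736 in SHP099. All 8 of these markers were detected in every library. Most of the sum came from Lyz2, the lysozyme gene that also drives the Cre, with 7440, 10228 and 7951 in WT, 4863, 4743 and 5407 in M-Shp2-/-, and 9348, 10280 and 10715 in SHP099. Lyz2 was thus lower in the 3 M-Shp2-/- libraries than in the other 6, without passing the test (adjusted p 0.388 against WT and 0.0555 against SHP099). Csf1r, the receptor for M-CSF, had 58.2, 67.8 and 111 in WT, 87.4, 71.8 and 176 in M-Shp2-/-, and 181, 211 and 206 in SHP099. The SHP099 libraries were above all others. Csf1r, chosen after its values were seen, was the macrophage marker that rose with SHP099 (log2 fold change 1.38, SE 0.22, adjusted p 0.0222), and M-Shp2-/- against SHP099 gave an adjusted p of 0.343 (0.002 without M-Shp2-/- 3). Without SHP099 1, 2 or 3 its adjusted p was 0.076, 0.116 and 0.0774.

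Markers of other cells were low but not even. The 7 T cell markers summed to 0.908, 2.38 and 7.31 in WT, 0.694, 0.417 and 3.77 in M-Shp2-/-, and 6.20, 5.06 and 4.27 in SHP099. Their most abundant gene was Cd3g with a mean of 0.871, and the list had 5 to 7 of its 7 genes above 0 in a library. The 7 NK cell markers, led by Nkg7 with a mean of 0.522, summed to 0.117, 1.40 and 4.28 in WT, 0.0332, 0.131 and 1.53 in M-Shp2-/-, and 0.831, 0.903 and 0.694 in SHP099. In the lowest of these libraries, M-Shp2-/- 1, 1 of the 7 NK markers was above 0.

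The 7 fibroblast and mesothelial markers, led by Col1a1 with a mean of 75.2, summed to 64.3, 304 and 39.9 in WT, 135, 51.7 and 588 in M-Shp2-/-, and 362, 138 and 102 in SHP099. The 6 neutrophil markers, led by S100a8 with a mean of 58.3, summed to between 42.1 in WT 1 and 103 in M-Shp2-/- 3. Most of this sum came from S100a8, with 34.5 in WT 1 and 95.4 in M-Shp2-/- 3. The other markers are named after their values were seen. Mmp8 was at 2.80 to 10.4, and S100a9, Ly6g, Cxcr2 and Retnlg were at 1.11 or less in every library. The 6 mast cell markers, led by Kit with a mean of 1.35, summed to 6.10, 4.76 and 6.01 in WT, 2.76, 3.19 and 1.60 in M-Shp2-/-, and 0.675, 0.564 and 0.970 in SHP099. The 3 groups of mast cell marker sums did not overlap, with WT highest and SHP099 lowest, while Fcer1a was at 0 in every library and Kit, the 1 gene of the list tested, did not pass (adjusted p 0.745 in M-Shp2-/- and 0.123 with SHP099 against WT). The 4 eosinophil markers stayed at a sum of 0.415 or less with Ear1 at 0 throughout. The 5 dendritic cell markers, led by Zbtb46 with a mean of 0.830, summed to 1.24, 1.28 and 0.809 in WT, 1.83, 1.33 and 1.66 in M-Shp2-/-, and 0.784, 0.725 and 0.619 in SHP099. These sums did not overlap between groups either, with M-Shp2-/- highest and SHP099 lowest, and none of the 5 genes reached the level for testing. The part of mast cells and dendritic cells in the results below was not tested. Fewer cells of a type and less RNA per cell cannot be told apart in such bulk samples.

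The targeted gene was examined before the members. Ptpn11, which codes for SHP2, had an FPKM of 45.8, 44.0 and 40.0 in WT, 18.6, 17.8 and 18.9 in M-Shp2-/-, and 43.0, 42.1 and 39.6 in SHP099. Every M-Shp2-/- library lay below every other library, at 42.5% of the WT mean, and the SHP099 libraries overlapped WT. Ptpn11 fell in M-Shp2-/- (log2 fold change -1.19, SE 0.10, adjusted p 0.0168) and was also lower in M-Shp2-/- than in SHP099 (log2 fold change -1.13, SE 0.08, adjusted p 0.0109). With 1 library left out the log2 fold change stayed at -1.24 to -1.15 against WT and at -1.17 to -1.11 against SHP099, but with fewer libraries the adjusted p rose to 0.105, 0.125, 0.196 and 0.151 without WT 1, WT 2, M-Shp2-/- 1 and M-Shp2-/- 2, and against SHP099 it passed only without M-Shp2-/- 3 (0.0534 to 0.115 without another library). These fold changes and all that follow are on the scale of log2(FPKM + 1), which understates the change of genes with low values.

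Genes were tested when their mean FPKM reached 1, which 11450 did. In M-Shp2-/- against WT, 10 of them passed an adjusted p of 0.05, all of them lower (6 lower and 5 higher with no filter on low FPKM), and 1 passed the stricter rule, which asks for an adjusted p no higher than 0.005 and a log2 fold change of 1 or more in either direction (0.00873% of the genes). In SHP099 against WT, 276 genes passed as lower and 521 as higher, and 19 passed the stricter rule (0.166%). Scaling each library by the median of ratios turned the balance among the genes that passed in SHP099 against WT, from 65.4% higher to 34.8% higher. The median log2 fold change of all genes was 0.15 in M-Shp2-/- against WT and 0.13 in SHP099 against WT, and that scaling moved both, to 0.01 and 0.00. Fold changes of the members are therefore also given relative to these medians. In M-Shp2-/- against SHP099, 8 genes passed and with limma 0 passed the stricter rule (0%), with 1437 genes at an unadjusted p under 0.05, and 14 genes passed an adjusted p of 0.05 by voom on recovered reads. Leaving out M-Shp2-/- 3 raised the 8 genes to 2277. In SHP099 against WT, the genes that passed numbered 284, 399 and 1273 without WT 1, 2 and 3, and 90, 47 and 116 without SHP099 1, 2 and 3, so that many single calls below end when a library is left out. Both comparisons with WT share the WT libraries.

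Taking the members as a group, 0 of the 8 tested passed an adjusted p of 0.05 in M-Shp2-/- against WT with limma, where 0.0873% of all genes did, and 3 of the 8 had an unadjusted p under 0.05, as 1204 of the 11450 genes did, with 0 by voom on recovered reads. Of the 8, 2 had M-Shp2-/- libraries all below WT (Jak2 and Stat2), as 3.07% of all genes did, and 0 had them all above, as 16% did. The median log2 fold change of the members was -0.11, beside 0.15 over all genes, and it was positive without M-Shp2-/- 3 (0.12, beside 0.18 over all genes) and without WT 1 (0.05, beside 0.18). In SHP099 against WT, 2 of the 8 fell (Stat5a and Jak2) and 0 rose, where 6.96% of all genes passed in either direction and 2.41% passed as lower. Of the 8, 3 had SHP099 libraries all below WT (Stat5a, Jak2 and Stat2), as 6.77% of all genes did, and 0 had them all above, as 27.9% did. The median was -0.13, beside 0.13 over all genes, and 0 of the members passed the stricter rule in any comparison.

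Between M-Shp2-/- and SHP099, 0 of the 8 members passed with limma, 0 had an unadjusted p under 0.05 and 0 passed by voom, where 0.0699% of all genes passed. For 0 of the 8 did the libraries lie apart, as they did for 9.76% of all genes with M-Shp2-/- lower and for 7.9% with M-Shp2-/- higher. Without M-Shp2-/- 3, 4 members passed, Stat5a (adjusted p 0.00349, up to 0.828 in other alternatives), Stat5b (0.0252, up to 0.986), Stat6 (0.0278, up to 0.969) and Tyk2 (0.0422, up to 0.984), all higher in M-Shp2-/-, where 19.9% of all genes passed. M-Shp2-/- 3 was the lowest M-Shp2-/- library for each of these 4 genes.

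**Figure D1:**
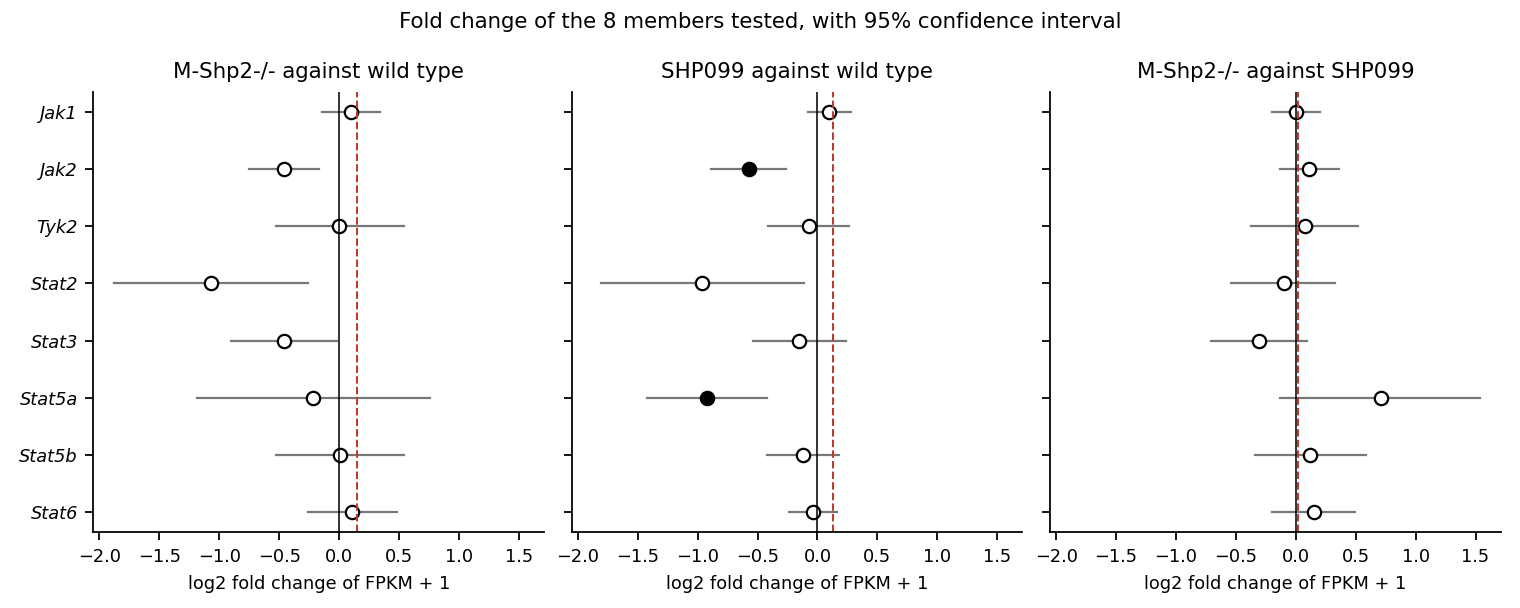
Log2 fold change of FPKM + 1 for the 8 members tested in each comparison, with 95% confidence intervals, filled circles for those that passed an adjusted p of 0.05, and a dashed line at the median of all genes (0.15, 0.13 and 0.02). The filled ones are Stat5a and Jak2 with SHP099, and under median-of-ratios scaling the small positive values of Jak1, Stat5b, Stat6 and Tyk2 in M-Shp2-/- and of Jak1 with SHP099 turn negative.

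By deposited FPKM, Jak1 was the most abundant member, with a mean over the 9 libraries of 279, followed by Stat6 with 155, Stat3 with 128 and Jak2 with 120.1. Stat2 had a mean of 43.1, Stat5a of 41.0, Tyk2 of 32.9, Stat5b of 23.6 and Stat4 of 0.561. Jak1 was above every value of Stat6, and Stat5b above every value of Stat4. The other neighbours in this order overlapped in their range over libraries, although Jak2 exceeded Stat2, and Tyk2 exceeded Stat5b, within each of the 9 libraries. Stat6 exceeded Stat3 in 6 libraries, and Stat3 exceeded Jak2 in 5. The order of group means differed between groups, with Jak2 above Stat3 in WT (150.9 against 146.6) and in M-Shp2-/- (108.7 against 106.4) and below it in SHP099 (100.8 against 131.6), and with Stat2 at rank 5 in WT and SHP099 and at rank 7 in M-Shp2-/-.

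That order depends on the gene length in the FPKM. The deposited values fit the mean length of a gene's annotated transcripts, which short transcripts pull down, to 1285 bases for Jak1 and 4048 bases for Jak2. All annotated exon bases together come to 7227 for Jak1 and 5030 for Jak2. On the scale of all exon bases, a choice made after the data were seen, Jak2 had the highest WT mean with 122 ± 17.9 (SD, n = 3), against 47.3 ± 3.07 for Jak1 and 42.6 ± 3.35 for Stat6. Jak2 was above Jak1 in all 9 libraries on that scale, whereas Jak1 and Stat6 overlapped. Stat4 was the lowest member on both scales, and its neighbour in the order did not overlap it.

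**Figure D2:**
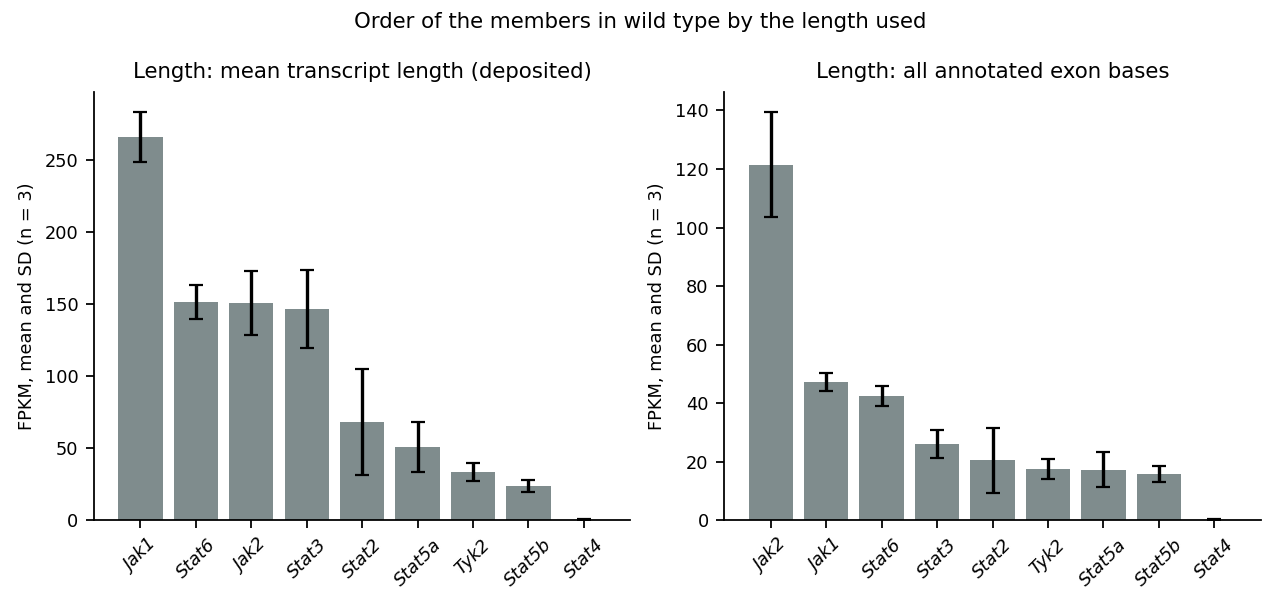
Mean level of each member in the WT libraries, in FPKM by mean transcript length (left) and by all annotated exon bases (right), with bars starting at 0 and error bars showing the SD (n = 3). Jak1 leads on the left and Jak2, with 122, on the right, and Stat4 is lowest on both.

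The receptors and ligands that act through these members were listed as 29 and 23 genes. Of the 23 receptors tested, 0 passed in M-Shp2-/- against WT with limma, 3 with an unadjusted p under 0.05, and the median log2 fold change was -0.06, beside 0.15 over all genes. In SHP099 against WT, 3 receptor genes fell (1 with no filter on low FPKM) and 0 rose, with a median of -0.16 beside 0.13 over all genes. Over all genes, 2.41% passed as lower. The most abundant receptor gene was Csf2ra, the GM-CSF receptor alpha chain, with a mean FPKM of 447 and an adjusted p of 0.897 and 0.615 in the comparisons with WT, and 0.742 between M-Shp2-/- and SHP099 (0.0392 without M-Shp2-/- 3).

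Csf2rb, the beta chain shared by the receptors for GM-CSF, IL-3 and IL-5 and bound by JAK2, had an FPKM of 479, 427 and 388 in WT, 356, 391 and 227 in M-Shp2-/-, and 205, 153 and 181 in SHP099. The SHP099 libraries were below all others, and M-Shp2-/- 2 reached into the WT range. Csf2rb fell with SHP099 (log2 fold change -1.26, SE 0.13, adjusted p 0.00769), and in M-Shp2-/- its log2 fold change was -0.44 (SE 0.21, adjusted p 0.479). Its paralog Csf2rb2, the mouse beta chain particular to IL-3, fell with SHP099 (log2 fold change -0.84, SE 0.10, adjusted p 0.0109), and reads that fit both paralogs make this pair less certain. Il7r, the IL-7 receptor alpha chain, fell as well (log2 fold change -0.79, SE 0.08, adjusted p 0.00846). Csf2rb2 lost its call without SHP099 2 or 3 (adjusted p 0.0668 and 0.0502), and Il7r without SHP099 2 (0.0537). The direct comparison of M-Shp2-/- and SHP099 gave adjusted p of 0.279 for Csf2rb, 0.138 for Csf2rb2 and 0.346 for Il7r, and without M-Shp2-/- 3 it gave 0.0046, 0.00907 and 0.00236, the lowest of their alternatives, whose highest were 0.749, 0.555 and 0.767.

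Among the ligands, 13 of 23 were tested. Of the 13, 12 had a negative log2 fold change in each comparison with WT, where 22.6% and 28.8% of all genes did. The medians were -1.23 in M-Shp2-/- and -1.49 in SHP099, beside 0.15 and 0.13 over all genes. Il6, the cytokine that signals through gp130 and STAT3, had an FPKM of 221, 237 and 258 in WT, 51.3, 54.1 and 51.3 in M-Shp2-/-, and 25.9, 18.3 and 58.4 in SHP099. No library of either group reached the WT range. Il6 fell in M-Shp2-/- (log2 fold change -2.17, SE 0.09, adjusted p 0.00117) and with SHP099 (log2 fold change -2.93, SE 0.37, adjusted p 0.0129, and 0.0541 without SHP099 1). Of 16 alternatives, the call in M-Shp2-/- held in 15 (adjusted p up to 0.082) and that with SHP099 in 14 (up to 0.074).

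Csf2, which codes for GM-CSF, had an FPKM of 12.3, 9.24 and 13.8 in WT, 2.92, 2.55 and 1.84 in M-Shp2-/-, and 2.88, 0.220 and 1.14 in SHP099. Again the WT libraries lay above all others. Csf2 fell in M-Shp2-/- (log2 fold change -1.89, SE 0.20, adjusted p 0.0442) and with SHP099 (log2 fold change -2.54, SE 0.40, adjusted p 0.0206). The call in M-Shp2-/- held in 3 of 16 alternatives, with adjusted p of 0.0401 to 0.258, and leaving out any library ended it. With SHP099 the call was lost without WT 1 (adjusted p 0.0576), SHP099 2 (0.059) or SHP099 3 (0.0723).

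The most abundant ligand gene was Il12b, the p40 subunit of IL-12 and IL-23, with an FPKM of 1411, 247 and 737 in WT, 339.7, 509 and 75.8 in M-Shp2-/-, and 31.3, 57.3 and 98.4 in SHP099. SHP099 lay below WT, and M-Shp2-/- overlapped both. It fell with SHP099 (log2 fold change -3.48, SE 0.66, adjusted p 0.0309), a call that ended without WT 1 (0.0653) or without SHP099 1, 2 or 3 (0.112, 0.133 and 0.0706). Il23a, the p19 subunit of IL-23, also fell with SHP099 (log2 fold change -2.22, SE 0.27, adjusted p 0.0116, and 0.0649 without SHP099 2). Lif and Osm, named after their values were seen, complete the 6 ligand genes that fell with SHP099 (log2 fold change -2.09 and -1.46). Over all genes, 2.41% passed as lower there. With no filter on low FPKM, 0 ligand genes passed with SHP099. M-Shp2-/- against SHP099 gave adjusted p of 0.355 for Il12b, 0.445 for Il23a and 0.331 for Lif, and Il12b passed there without M-Shp2-/- 3 (0.00976). Lif passed in M-Shp2-/- against WT without M-Shp2-/- 3 (0.0473, against 0.388 with it). Ifna4 was at 0 in every library, and Ifnb1, chosen after its values were seen, at 0.0314 FPKM or less.

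The kinase Jak1 associates with interferon and gp130 receptors. Jak1 (ENSMUSG00000028530, GRCm38 chr4:101152367-101265282, minus strand, 8 annotated transcripts) had an FPKM of 249, 265 and 284 in WT, 269, 272 and 315 in M-Shp2-/-, and 286, 288 and 279.6 in SHP099. The groups overlapped, and M-Shp2-/- 3 was the highest library. Its log2 fold change was 0.10 in both comparisons with WT (SE 0.10, adjusted p 0.642 for M-Shp2-/-, and SE 0.08, adjusted p 0.458 for SHP099), and both turned negative, to -0.057 and -0.044, with median-of-ratios scaling.

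Jak2 (ENSMUSG00000024789, chr19:29251828-29313080, plus strand, 4 transcripts) codes for the kinase that serves the GM-CSF receptor and, with others, the IFN-γ and IL-12 receptors. Its FPKM was 135, 176 and 142 in WT, 107, 103 and 116 in M-Shp2-/-, and 91.0, 96.7 and 115 in SHP099. All WT libraries lay above the other 6, and M-Shp2-/- and SHP099 overlapped. Jak2 fell with SHP099 (log2 fold change -0.57, SE 0.13, 95% confidence interval -0.89 to -0.26, adjusted p 0.0485), which is -0.70 relative to the median of all genes. In M-Shp2-/- its log2 fold change was -0.46 (SE 0.12, adjusted p 0.448). M-Shp2-/- and SHP099 differed by 0.11 (SE 0.10, 95% confidence interval -0.13 to 0.36, adjusted p 0.666). The call with SHP099 was just inside the threshold and was lost when any of the 6 libraries was left out, with adjusted p of 0.0716, 0.0894 and 0.0519 without WT 1, 2 and 3 and of 0.174, 0.192 and 0.0785 without SHP099 1, 2 and 3. Over all 16 alternatives it ran from 0.0326 to 0.192.

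Tyk2, the kinase of the type I interferon and IL-12 receptors (ENSMUSG00000032175, chr9:21104068-21131243, minus strand, 6 transcripts), had an FPKM of 39.4, 26.9 and 34.2 in WT, 38.1, 39.4 and 24.2 in M-Shp2-/-, and 29.2, 33.0 and 32.1 in SHP099. The groups overlapped, with M-Shp2-/- 3 the lowest library and SHP099 within the range of WT. Its absolute log2 fold change was 0.07 or less in the comparisons with WT (adjusted p 0.998 and 0.789), and the value for M-Shp2-/- was -0.15 with median-of-ratios scaling. The antisense gene 1700084C06Rik shares 554 exon bases with Tyk2 and had an FPKM of 0.

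As a share of the summed FPKM of the 3 kinases, Jak2 made up 31.8%, 37.7% and 30.8% in WT, 25.9%, 25.0% and 25.4% in M-Shp2-/-, and 22.4%, 23.1% and 26.9% in SHP099. Each WT share was above all 6 others. The difference from WT had an exact permutation p of 0.1 for either group, two-sided, which is the smallest that 3 against 3 libraries allow. In recovered reads, which weight the longer Jak2 transcripts more and were chosen after the data were seen, the mean share was 56.7% in WT, 47.4% in M-Shp2-/- and 45.9% in SHP099.

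**Figure D3:**
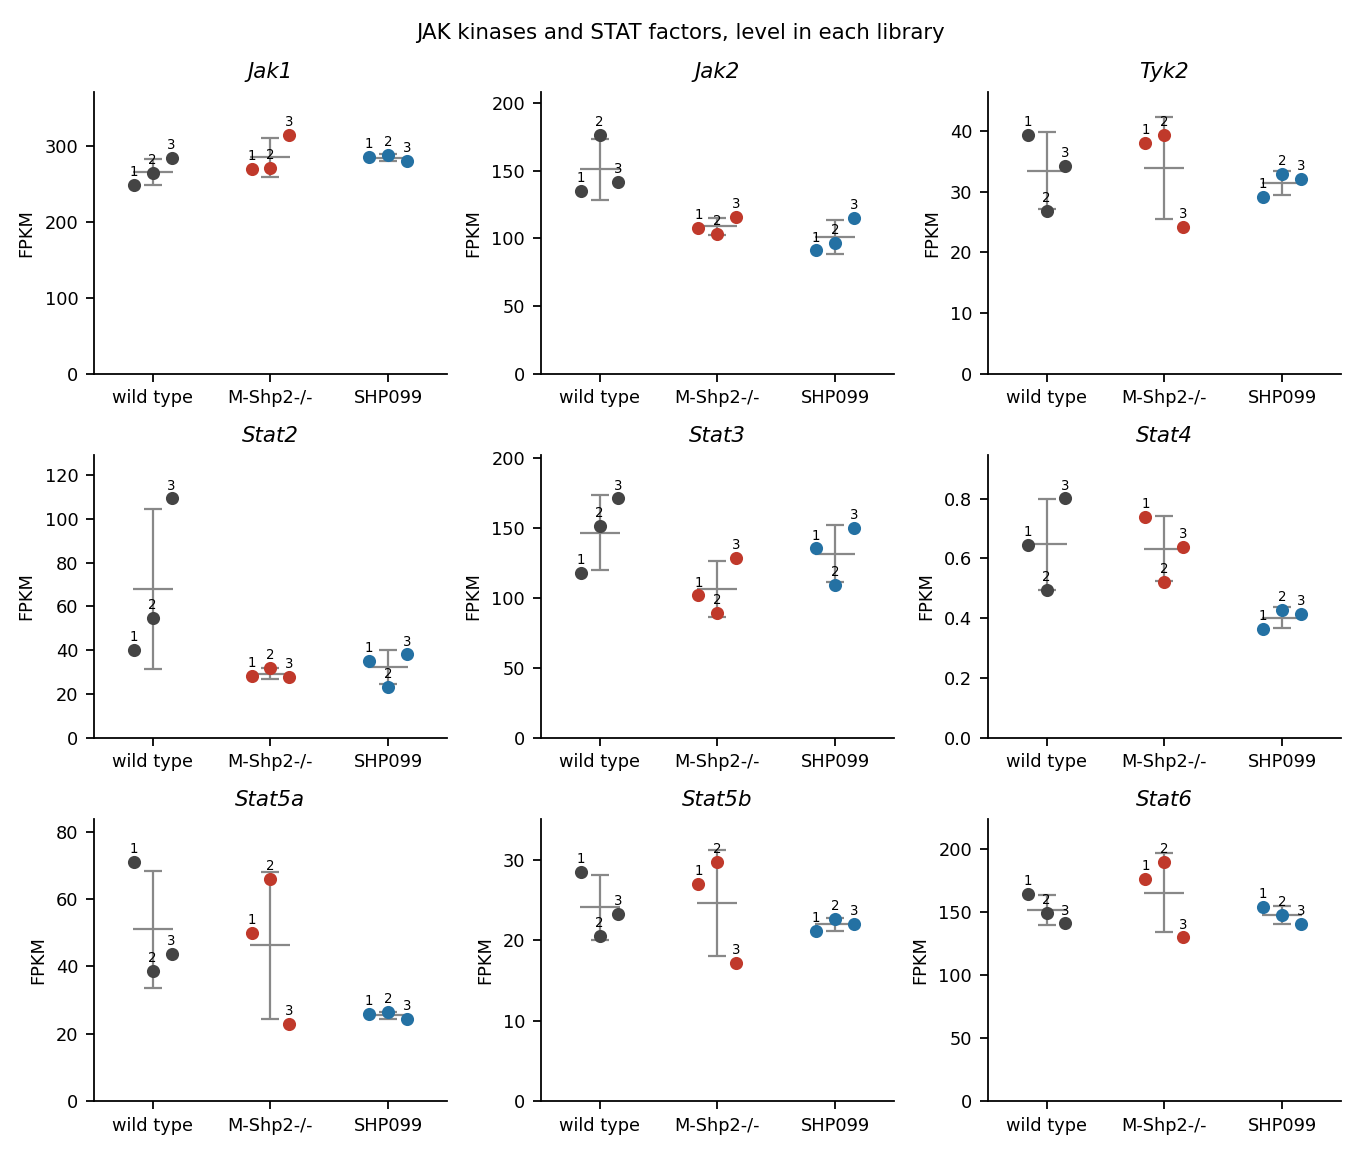
FPKM of each member in every library, with the axis starting at 0, numbers for the replicate, and grey lines for the mean and SD of a group (n = 3). WT lies above both other groups for Jak2 and Stat2, and the SHP099 libraries of Stat5a, at 24.4 to 26.4, lie below WT.

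Stat2 is the STAT that joins IRF9 in ISGF3, the factor that binds interferon-stimulated response elements after type I interferon. Stat2 (ENSMUSG00000040033, chr10:128270559-128292849, plus strand, 8 transcripts) lies 609601 bases from the end of Stat6 on the same chromosome. RefSeq (GRCm38.p6) lists promoters for all 9 members, 12 in all. The 250 bases before each start were searched on both strands for the core of an interferon-stimulated response element (ISRE), which is GAAA, any 2 bases and GAAA, and for the letters of a gamma-activated site (GAS), which are TTC, any 3 bases and GAA. The promoters of 2 of the 9 members, Stat2 and Stat4, held the ISRE letters, and those of 0 held the GAS letters, against 3.46% and 8.13% of the 27025 genes in the table. Of the 24 ISGF3 target genes with a promoter in the table, 10 held the ISRE letters (41.7%). Below are the promoter of Stat2 (chr10:128270248-128270497, plus strand) and that of Bst2, the most abundant of the listed ISGF3 targets (chr8:71537473-71537722, minus strand), shown because both genes were highest in WT 3. Capitals mark the letters that match. In Stat2 they are an ISRE match read on the opposite strand, and in Bst2 they are a GAS match and a pair of ISRE matches that overlap one another. A match is a description of the letters only.
Stat2: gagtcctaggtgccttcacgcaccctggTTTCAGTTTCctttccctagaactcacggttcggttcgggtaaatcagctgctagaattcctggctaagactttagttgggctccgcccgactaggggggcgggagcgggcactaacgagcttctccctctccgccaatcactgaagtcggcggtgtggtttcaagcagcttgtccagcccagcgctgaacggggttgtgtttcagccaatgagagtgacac
Bst2: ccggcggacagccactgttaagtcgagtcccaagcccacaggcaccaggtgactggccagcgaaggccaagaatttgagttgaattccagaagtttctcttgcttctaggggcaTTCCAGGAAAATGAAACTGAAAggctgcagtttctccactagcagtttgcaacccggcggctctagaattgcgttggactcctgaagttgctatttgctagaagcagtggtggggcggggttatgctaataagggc

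Stat2 had an FPKM of 39.9, 54.9 and 109 in WT, 28.0, 32.0 and 27.7 in M-Shp2-/-, and 35.0, 23.3 and 38.0 in SHP099. The WT libraries were spread widely, with WT 3 the highest and WT 1 close to SHP099 3, yet all lay above the other groups. The mean was 68.1 ± 36.6 in WT, 29.2 ± 2.39 in M-Shp2-/- and 32.1 ± 7.80 in SHP099 (SD, n = 3). Stat2 had the lowest log2 fold change of the members in M-Shp2-/-, -1.07 (SE 0.34, adjusted p 0.455), or -1.22 relative to the median of all genes, and it did not pass the test. With SHP099 it was -0.96 (SE 0.36, adjusted p 0.147). Without WT 3 these values were -0.67 (adjusted p 0.604) and -0.56 (adjusted p 0.175), within 0.218 to 0.89 and 0.091 to 0.403 over the alternatives.

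The 32 listed ISGF3 targets had their highest sum in the same library. They summed to an FPKM of 888, 1239 and 2611 in WT, 624, 643 and 757 in M-Shp2-/-, and 857, 696 and 1065 in SHP099. Of the 31 tested, 31 had a negative log2 fold change in each comparison with WT, with medians of -1.21 and -0.85, where 22.6% and 28.8% of all genes were negative. With limma, 0 of the 31 passed in either comparison, and 20 and 10 had an unadjusted p under 0.05, where 1204 and 3061 of the 11450 genes did. By voom on recovered reads 0 passed as well. In SHP099 against WT, 2 passed as lower with all 9 libraries in one fit and 1 with a mean FPKM of at least 5. With equal replicate numbers treated as paired, 3 did. Without WT 3, the medians were -0.65 and -0.32, and 31 and 27 of the 31 were negative. With SHP099, 3 of the 31 passed as lower without WT 1 and 2 without WT 3. In M-Shp2-/- against SHP099, 28 of the 31 were negative, with a median of -0.28, where 46.8% of all genes were negative, and 0 passed with limma (5 with an unadjusted p under 0.05, and 0 by voom), but 4 passed as lower without M-Shp2-/- 3. Relative to the WT mean, the median of the list was -0.78, -0.16 and 1.04 in WT 1 to 3, and Stat2 followed it with its lowest WT value in WT 1 and its highest in WT 3. The T cell and NK cell marker sums and Ifng were also highest in WT 3 among the WT libraries. Their part in the levels of Stat2 and of these targets was not tested.

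Bst2, which codes for tetherin, had an FPKM of 233, 263 and 382 in WT, 226, 196 and 188 in M-Shp2-/-, and 259, 224 and 295 in SHP099. The M-Shp2-/- libraries lay just below WT, and SHP099 overlapped it (adjusted p 0.465 and 0.675). Irf9, the partner of STAT2, had 25.2, 35.6 and 43.6 in WT, 16.8, 20.8 and 21.9 in M-Shp2-/-, and 24.7, 17.7 and 26.8 in SHP099. The WT libraries lay above M-Shp2-/-, and WT 1 lay inside the SHP099 range. Irf9 was chosen after its values were seen. Its log2 fold change was -0.75 in M-Shp2-/- (SE 0.21, adjusted p 0.454) and -0.56 with SHP099 (SE 0.23, adjusted p 0.17).

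Stat3 (ENSMUSG00000004040, chr11:100885098-100939540, minus strand, 14 transcripts) acts below the IL-6 and IL-10 receptors. It had an FPKM of 118, 151 and 171 in WT, 102, 89.1 and 128 in M-Shp2-/-, and 135, 109 and 150.0 in SHP099. M-Shp2-/- 1 and 2 were the lowest libraries, and M-Shp2-/- 3 lay inside the WT range. The log2 fold change was -0.46 in M-Shp2-/- (SE 0.18, 95% confidence interval -0.90 to -0.02, adjusted p 0.467) and -0.15 with SHP099 (SE 0.17, adjusted p 0.619). Without WT 3, SHP099 was at -0.031 (adjusted p 0.926), and over the alternatives the adjusted p ran from 0.214 to 0.89 for M-Shp2-/- and from 0.269 to 0.966 for SHP099. Stat3 and Stat5a run toward each other on chromosome 11 and their 3′ ends share 72 exon bases, where reads cannot be told apart unless strand was used.

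Of the 17 STAT3 targets tested, 0 passed in M-Shp2-/- against WT with limma (7 with an unadjusted p under 0.05, and 0 by voom), and the median log2 fold change was -0.24. With 1 library left out, that median ran from -0.29 (without WT 3) to -0.08 (without M-Shp2-/- 2). Against WT, 5 fell and 0 rose in SHP099, where 2.41% of all genes passed as lower. The median of these targets was -0.45, beside 0.13 over all genes. Without SHP099 1, 2 and 3, however, 1, 0 and 1 fell, and 0 with no filter on low FPKM. The most abundant, Junb, a subunit of AP-1, had a mean FPKM of 683 and did not pass (adjusted p 0.46 and 0.138). Nfil3, a repressor of the bZIP family, fell with SHP099 (log2 fold change -0.99, SE 0.15, adjusted p 0.0192), as did Bcl3, an atypical IκB protein (log2 fold change -0.96, SE 0.13, adjusted p 0.0136), and Batf, an AP-1 factor (log2 fold change -0.73, SE 0.10, adjusted p 0.0149). Leaving out SHP099 1, 2 or 3 ended the calls of Nfil3 (0.0651, 0.11 and 0.0705) and Batf (0.0676, 0.0843 and 0.0615), and leaving out SHP099 2 or 3 that of Bcl3 (0.0611 and 0.0546). The remaining ones were Socs3 and Fosl2, the latter chosen after its values were seen (adjusted p 0.0418, and 0.0609 to 0.16 without any of the 6 libraries). Between M-Shp2-/- and SHP099 the adjusted p was 0.679 for Nfil3, 0.329 for Bcl3 and 0.477 for Batf, and without M-Shp2-/- 3 Bcl3 (0.0116) and Batf (0.0021) passed. Batf in M-Shp2-/- was at 114, 126 and 59.0, so that M-Shp2-/- 1 and 2 overlapped WT at 120.3, 97.9 and 119 and M-Shp2-/- 3 was the lowest of the 9 libraries, below SHP099 at 66.6, 69.8 and 64.3.

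Stat4, which mediates IL-12 signals in lymphocytes, was the least abundant member. Stat4 (ENSMUSG00000062939, chr1:51987148-52107189, plus strand, 4 transcripts) had an FPKM of 0.644, 0.496 and 0.801 in WT, 0.738, 0.521 and 0.639 in M-Shp2-/-, and 0.363, 0.428 and 0.414 in SHP099. These values stood on 52, 46 and 62 reads in WT, 58, 39 and 53 in M-Shp2-/-, and 29, 31 and 33 in SHP099, where 3 reads would give an FPKM of 0.0324 to 0.0414. The SHP099 libraries lay below the other 6. Stat4 was the 1 member under the filter of a mean FPKM of 1, so that 8 members were tested. Without that filter its log2 fold change with SHP099 was -0.23 (SE 0.08, adjusted p 0.292). It shares 1033 exon bases with Gm28177 on the same strand, and T cell and NK cell markers were at low levels in the same libraries. Their part in the level of Stat4 was not tested.

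Stat5a and Stat5b are paralogs that lie on opposite strands of chromosome 11, with 8626 bases between them, and both act below the GM-CSF receptor. Stat5a (ENSMUSG00000004043, chr11:100859351-100885169, plus strand, 7 transcripts) had an FPKM of 70.9, 38.6 and 43.7 in WT, 49.8, 66.0 and 22.9 in M-Shp2-/-, and 25.9, 26.4 and 24.4 in SHP099. SHP099 lay below WT with little spread, at 50.1% of the WT mean. M-Shp2-/- 1 and 2 were within the WT range, and M-Shp2-/- 3 was the lowest of all 9 libraries. Stat5a fell with SHP099 (log2 fold change -0.92, SE 0.21, 95% confidence interval -1.42 to -0.42, adjusted p 0.0477), or -1.05 relative to the median of all genes. In M-Shp2-/- its log2 fold change was -0.22 (SE 0.41, adjusted p 0.798), and without M-Shp2-/- 3 it was 0.21 (SE 0.28, adjusted p 0.643), within 0.643 to 0.967 over the alternatives.

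M-Shp2-/- and SHP099 differed in Stat5a by a log2 fold change of 0.71 (SE 0.35, 95% confidence interval -0.13 to 1.54, adjusted p 0.446), and without M-Shp2-/- 3 by 1.13 (adjusted p 0.00349, with up to 0.828 in other alternatives). The fall of Stat5a with SHP099 was just inside the threshold. It passed in 7 of 16 alternatives, whose adjusted p ran from 0.0371 to 0.174, and leaving out SHP099 1, 2 or 3 ended it (0.154, 0.174 and 0.126).

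Stat5b (ENSMUSG00000020919, chr11:100780731-100850724, minus strand, 3 transcripts) had an FPKM of 28.5, 20.5 and 23.3 in WT, 27.0, 29.7 and 17.2 in M-Shp2-/-, and 21.2, 22.7 and 22.0 in SHP099. The 3 groups overlapped, and M-Shp2-/- 3 was again lowest. The log2 fold change was 0.01 in M-Shp2-/- (SE 0.22, 95% confidence interval -0.53 to 0.54) and -0.12 with SHP099 (SE 0.13, 95% confidence interval -0.42 to 0.18), with adjusted p of 0.992 and 0.608. The value for M-Shp2-/- was -0.15 with median-of-ratios scaling. How the counting treated reads that fit both paralogs is not given in the sources used here, so that both values are less certain than those of a single-copy gene.

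As a share of the summed FPKM of the pair, Stat5a made up 71.3%, 65.4% and 65.2% in WT, 64.9%, 68.9% and 57.2% in M-Shp2-/-, and 55.0%, 53.8% and 52.6% in SHP099. All SHP099 shares were below all others. The exact permutation p, two-sided, was 0.1 for SHP099 against WT and for M-Shp2-/- against SHP099, the smallest allowed, and 0.4 for M-Shp2-/- against WT. In recovered reads, a choice made after the data were seen, the mean share was 57.7% in WT, 53.8% in M-Shp2-/- and 43.5% in SHP099.

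**Figure D4:**
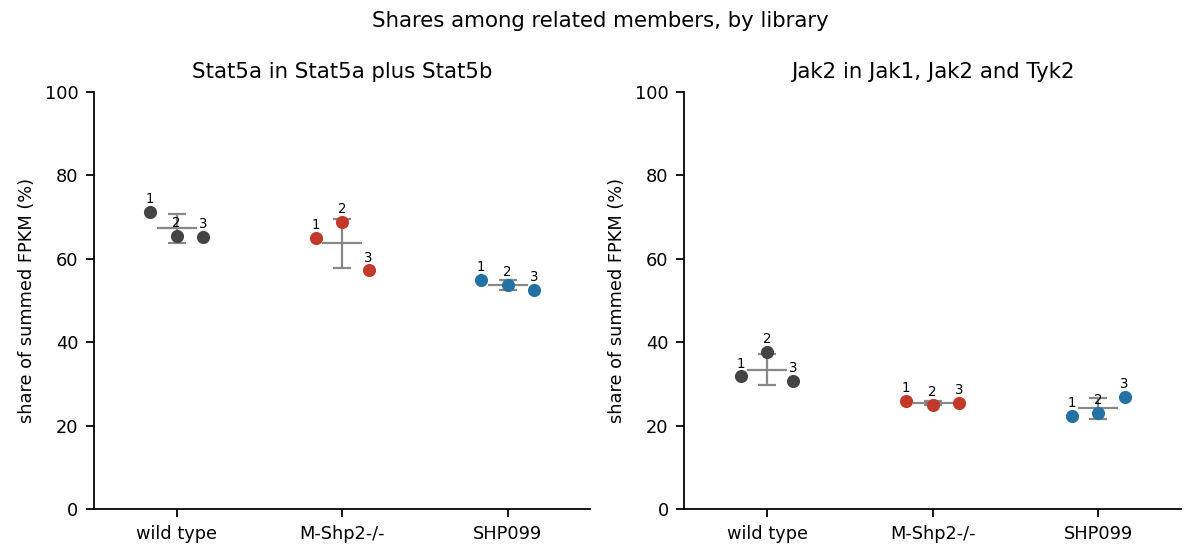
Share of Stat5a in the summed FPKM of Stat5a and Stat5b (left) and of Jak2 in that of the 3 kinases (right), in percent from 0 to 100, with a point per library and the mean and SD of each group (n = 3). The SHP099 libraries of Stat5a, at 52.6% to 55.0%, lie below the other 6, and the WT libraries of Jak2, at 30.8% to 37.7%, lie above the other 6.

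STAT5 targets were tested for 12 listed genes, of which 4 fell and 1 rose with SHP099, and their median log2 fold change was -0.59. Of all 11450 genes, 276 passed as lower and 521 as higher, with a median of 0.13. With SHP099 1, 2 or 3 left out, 3 STAT5 targets fell, and with no filter on low FPKM 0 did. The 4 that fell with all libraries and the filter were Cish, Ccnd2, Osm and Socs3. The lists share genes, since Socs3 is also counted among STAT3 targets and inhibitors, Cish among inhibitors and Osm among ligands. In M-Shp2-/-, 0 of the 12 passed with limma (7 with an unadjusted p under 0.05, and 0 by voom), with a median of -0.24. With 1 library left out, that median ran from -0.4 (without WT 2) to -0.27 (without WT 1). Cish, a feedback inhibitor of STAT5, had an FPKM of 16.5, 11.3 and 13.1 in WT, 4.80, 5.51 and 1.88 in M-Shp2-/-, and 2.36, 0.873 and 2.31 in SHP099. The WT libraries were all above the other 6, and M-Shp2-/- 3 fell among the SHP099 values. Cish fell with SHP099 (log2 fold change -2.39, SE 0.26, adjusted p 0.00846), and its log2 fold change in M-Shp2-/- was -1.60 (SE 0.33, adjusted p 0.388). Leaving out single libraries kept the call with SHP099, with adjusted p of 0.0125 to 0.0384. Over all alternatives it passed in 15 of 16, with an adjusted p of up to 0.0623. M-Shp2-/- against SHP099 gave an adjusted p of 0.427 for Cish, and 0.0338 without M-Shp2-/- 3.

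Ccnd2, which codes for cyclin D2, had an FPKM of 18.7, 14.9 and 19.9 in WT, 11.1, 11.7 and 7.90 in M-Shp2-/-, and 6.28, 4.70 and 6.82 in SHP099. Each group lay clear of the others, with SHP099 the lowest. Ccnd2 fell with SHP099 (log2 fold change -1.45, SE 0.16, adjusted p 0.00911), its log2 fold change in M-Shp2-/- was -0.75 (SE 0.18, adjusted p 0.412), and the direct comparison gave an adjusted p of 0.279, or 0.0139 without M-Shp2-/- 3. Osm, which codes for oncostatin M, fell with SHP099 (log2 fold change -1.46, SE 0.21, adjusted p 0.0176, and 0.0502 without SHP099 3), with an adjusted p of 0.619 between M-Shp2-/- and SHP099.

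The STAT5 target that rose, named after its values were seen, was Bcl6, a repressor that STAT5 is known to lower. Bcl6 had an FPKM of 3.19, 4.13 and 4.33 in WT, 3.49, 2.87 and 7.85 in M-Shp2-/-, and 7.01, 17.5 and 10.9 in SHP099. SHP099 lay above WT, and M-Shp2-/- 3 was inside the SHP099 range. Its log2 fold change with SHP099 was 1.31 (SE 0.29, adjusted p 0.0439), which held in 4 of 16 alternatives (0.0387 to 0.158) and, of the 6 libraries, only with SHP099 1 left out, since the adjusted p was 0.108, 0.08 and 0.0543 without WT 1, 2 and 3 and 0.132 and 0.114 without SHP099 2 and 3. M-Shp2-/- against SHP099 gave an adjusted p of 0.347, and 0.0243 without M-Shp2-/- 3.

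Stat6, the STAT of IL-4 and IL-13 (ENSMUSG00000002147, chr10:127642986-127660957, plus strand, 5 transcripts), had an FPKM of 164, 149 and 141 in WT, 176, 189.6 and 129.9 in M-Shp2-/-, and 154, 148 and 140.3 in SHP099. The groups overlapped, with M-Shp2-/- 2 the highest and M-Shp2-/- 3 the lowest library. The log2 fold change was 0.11 in M-Shp2-/- (SE 0.16, 95% confidence interval -0.26 to 0.48, adjusted p 0.733), which turned to -0.048 with median-of-ratios scaling, and -0.04 with SHP099 (SE 0.09, 95% confidence interval -0.24 to 0.16, adjusted p 0.82). Stat6 shares 40 exon bases with Nab2 on the opposite strand.

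STAT6 targets, 12 of them tested, had a median log2 fold change of -1.36 with SHP099, where 5 fell and 0 rose (1 fell without SHP099 1, 2 or 3), and of 0.00 in M-Shp2-/-, where 0 passed with limma (1 with an unadjusted p under 0.05, and 0 by voom). Over all genes, the median was 0.13 with SHP099, where 2.41% passed as lower, and 0.15 in M-Shp2-/-. With no filter on low FPKM, 1 STAT6 target fell with SHP099. Without M-Shp2-/- 3 the median in M-Shp2-/- was 0.33, with 3 of the 12 negative. Mrc1, the mannose receptor CD206, had an FPKM of 61.5, 43.8 and 43.5 in WT, 59.8, 71.2 and 19.4 in M-Shp2-/-, and 10.3, 10.1 and 9.79 in SHP099. SHP099 was far below WT, whereas M-Shp2-/- 1 and 2 were at or above the WT level and M-Shp2-/- 3 in between. Mrc1 fell with SHP099 (log2 fold change -2.18, SE 0.14, adjusted p 0.00289), and it passed in all 16 alternatives.

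Retnla, which codes for the secreted protein Fizz1, fell with SHP099 (log2 fold change -2.67, SE 0.56, adjusted p 0.039). Slc7a2, an arginine transporter and the most abundant of the list, fell too (log2 fold change -1.57, SE 0.34, adjusted p 0.0424), and so did Chil3, a chitinase-like protein (log2 fold change -1.32, SE 0.25, adjusted p 0.0322). The remaining one was Irf4, chosen after its values were seen (log2 fold change -0.84, adjusted p 0.049). These calls were lost without SHP099 1, 2 or 3, with adjusted p of 0.134, 0.165 and 0.0997 for Retnla, 0.154, 0.178 and 0.072 for Slc7a2, 0.115, 0.136 and 0.0955 for Chil3, and 0.12, 0.193 and 0.124 for Irf4. They were also lost without WT 1 for Retnla (0.0898), Slc7a2 (0.0652) and Irf4 (0.122), and without WT 2 for Slc7a2 (0.0529) and Irf4 (0.103).

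In the direct comparison, 11 of the 12 STAT6 targets had a positive sign, with M-Shp2-/- above SHP099, where 46.8% of all genes were negative. Of the 12, 0 passed with limma, 6 had an unadjusted p under 0.05 and 0 passed by voom. Without M-Shp2-/- 3, 7 passed as higher and 1 as lower, where 19.9% of all genes passed. The adjusted p of Mrc1 there was 0.244 with all libraries and 0.000773 without M-Shp2-/- 3, and over the alternatives it ran up to 0.736. Retnla went from 0.316 to 0.00105, while Slc7a2 (0.719) and Chil3 (0.535) did not pass in any alternative. Egr2 was at 0 in every library.

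**Figure D5:**
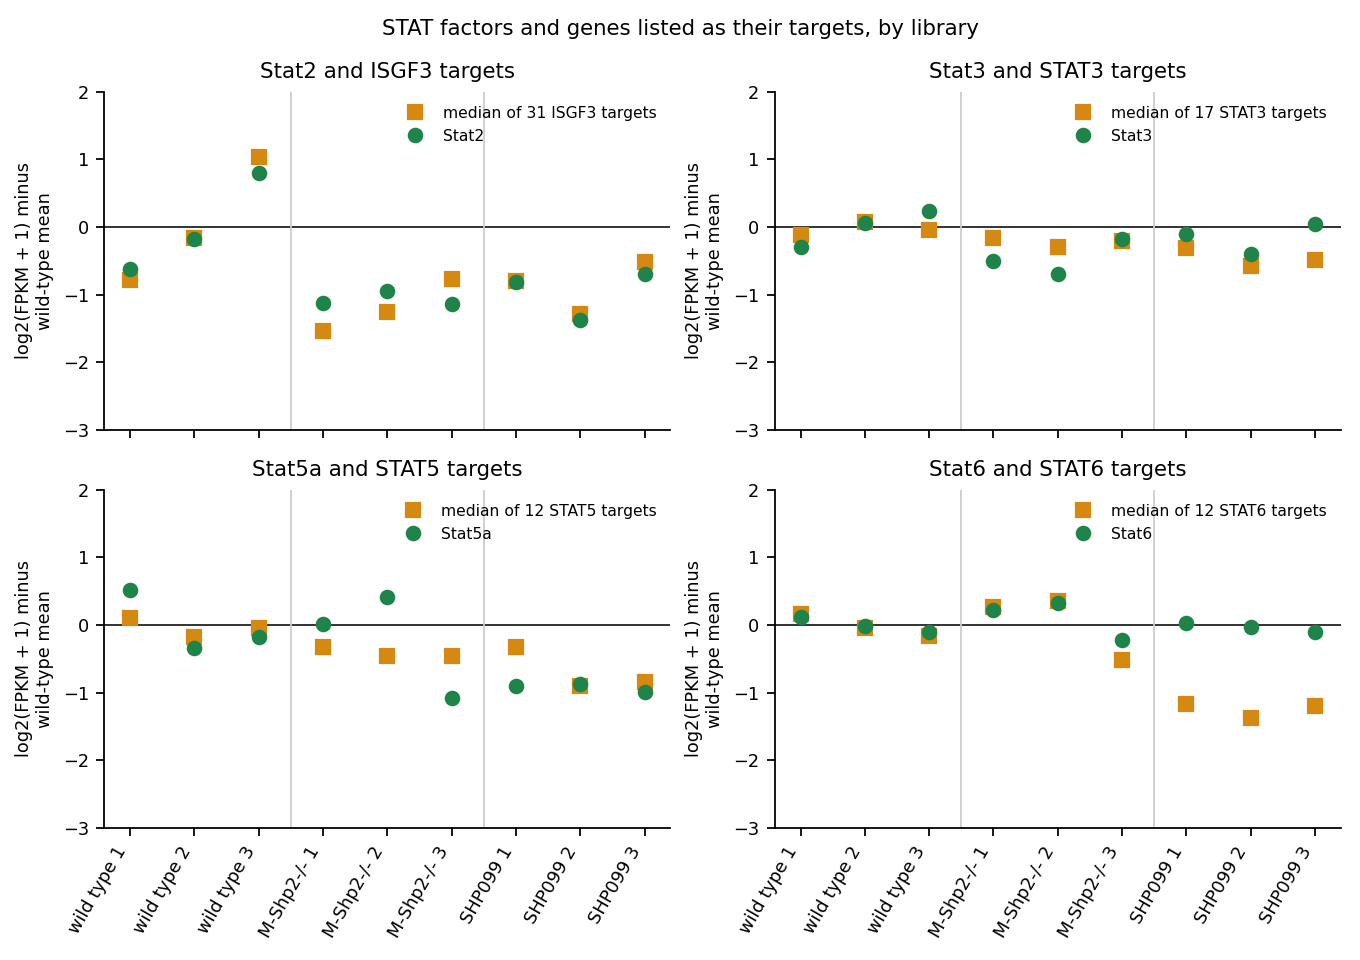
Difference of log2(FPKM + 1) from the WT mean in each library, for a STAT (green circles) and for the median of the tested genes listed as its targets (orange squares). Stat2 and the ISGF3 targets are highest in WT 3, and the STAT6 targets are low in the SHP099 libraries (-1.16, -1.37 and -1.20), where Stat6 is near its WT level.

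Inhibitors of the pathway were listed as 18 genes, all of them tested. Of these, 2 fell (0 with no filter on low FPKM) and 0 rose in SHP099 against WT, where 2.41% of all genes passed as lower. The median log2 fold change of the 18 was -0.05, beside 0.13 over all genes. In M-Shp2-/- 0 passed with limma (4 with an unadjusted p under 0.05, and 0 by voom), with a median of 0.05. Those that fell were Cish, given above, and Socs3, the most abundant of the list, which blocks gp130 receptors. Socs3 had an FPKM of 888, 1010 and 1517 in WT, 488, 443 and 434 in M-Shp2-/-, and 368, 315 and 450.2 in SHP099. All WT libraries were above the other 6. Socs3 fell with SHP099 (log2 fold change -1.57, SE 0.22, adjusted p 0.0157, but 0.0651 and 0.0888 without SHP099 1 and 2), and its log2 fold change in M-Shp2-/- was -1.28 (SE 0.20, adjusted p 0.204), with an adjusted p of 0.44 between M-Shp2-/- and SHP099.

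Over the 9 libraries, the genes whose log2 values were most like those of Stat5a were Cd109 (Pearson r 0.981), Gm49125 (0.981) and Ccl17 (0.979), a chemokine gene. Cd109 had an FPKM of 12.9, 6.36 and 5.79 in WT, 10.1, 15.9 and 2.37 in M-Shp2-/-, and 3.20, 2.88 and 2.19 in SHP099. Like Stat5a, it was high in WT 1 and M-Shp2-/- 2 and low in M-Shp2-/- 3 and SHP099. The genes most like Jak2 were Dgat2 (0.973), Slc7a2 (0.968) and Gm26584 (0.968). Slc7a2 and Gm26584 start within 1 base of each other on chromosome 8. Slc7a2 had an FPKM of 376, 837 and 411 in WT, 162, 168 and 345 in M-Shp2-/-, and 143, 141 and 244 in SHP099, with its highest value in WT 2, as for Jak2. The libraries share their group, and these correlations are a description.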

How the data were processed

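RNA-seq of 9 libraries was analysed, 3 in each of the groups WT, M-Shp2-/- (KO in the sample names) and SHP099. The authors deposited FPKM per gene and library. The submitters' processing notes name CASAVA 1.8, HISAT2 2.0.4 and HTSeq 0.9.1, and the tool that made the FPKM, the genome build and the strand setting are not given in the sources used here. FPKM times mean transcript length (GENCODE M21) gave whole reads, within 0.05 for 73 of 81 member values, from which reads and depth were recovered. Each pair of groups was compared on log2(FPKM + 1) over its 6 libraries with limma 3.58.1 (lmFit, eBayes with trend) in R 4.3.3, for genes whose mean FPKM was 1 or more, with Benjamini-Hochberg adjustment over all genes tested. The procedure was tested on simulated data. Tables and figures were made with Python 3.11.15.

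Shares were compared by an exact permutation test, two-sided. Alternatives were other pseudocounts (0.1 and 5), filters, scalings and fits, voom on recovered reads, and leaving out each library.

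The named genes are the members, Ptpn11, the most abundant gene of each list, up to 4 genes of each list with the largest changes that passed in each comparison with WT, markers at 0, and for each member that passed the 3 genes most like it. Others are said to be chosen after their values were seen. Members and lists were chosen with earlier results of these data known. Other members of these families are not reported here.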

Additional observations from a re-analysis of the deposited data

How the results depend on the processing

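The 24 member results (8 members in 3 comparisons) were recomputed in 384 alternative fits. Direction and side of the threshold were kept in 333, the direction turned in 28, a call was lost in 19 and gained in 4. Where a cause is not given by fewer libraries or genes, the cause was not tested.

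Median-of-ratios scaling turned the log2 fold change in M-Shp2-/- against WT to -0.15 for Stat5b, -0.048 for Stat6, -0.057 for Jak1 and -0.15 for Tyk2, and in SHP099 against WT to -0.044 for Jak1. Quantile normalization gave -0.10 for Stat5b and -0.088 for Tyk2 in M-Shp2-/- against WT. In M-Shp2-/- against SHP099, voom gave 0.0001 for Jak1.

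With 1 library left out, the log2 fold change in M-Shp2-/- against WT ran from -0.53 to 0.21 for Stat5a, -0.14 to 0.24 for Stat5b and -0.14 to 0.22 for Tyk2. In SHP099 against WT it ran from -0.22 to 0.0051 for Stat5b, -0.088 to 0.023 for Stat6 and -0.22 to 0.049 for Tyk2. In M-Shp2-/- against SHP099 it ran from -0.31 to 0.029 for Stat2, -0.026 to 0.35 for Stat5b, -0.073 to 0.038 for Jak1 and -0.046 to 0.30 for Tyk2.

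Genes past the stricter rule in M-Shp2-/- against WT numbered 1, and 0 with no filter, 3 with median-of-ratios scaling, 0 with eBayes without trend, 2 with all 9 libraries in one fit and 0 to 0 with a library left out. Those at an adjusted p of 0.05 numbered 10 (all lower), and 6 lower and 5 higher with no filter, 11 lower and 1 higher with quantile normalization, 6 lower and 1 higher with all 9 libraries, 6 without trend and 1 to 8 with a library left out. In SHP099 against WT, the stricter count of 19 became 0 with no filter, 4 without trend, 9 with voom and 0 to 26 with a library left out, and the 797 genes at an adjusted p of 0.05 became 74 with no filter and 47 to 1273 with a library left out. The 2 members that passed became 1 with pseudocount 5, quantile normalization, all 9 libraries or voom, 0 with no filter or without trend, and 0 to 1 with a library left out. In M-Shp2-/- against SHP099, the stricter count of 0 became 1 with all 9 libraries and 0 to 159 with a library left out, the 8 genes became 3 with no filter, 17 with a mean FPKM of at least 5, 3 with all 9 libraries, 14 with voom and 0 to 2277 with a library left out, and the members 0 to 4.

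A replicate block, which treats equal replicate numbers as paired, gave 0 genes past the stricter rule in each comparison, 2, 591 and 0 genes at an adjusted p of 0.05, and 0 members (Stat5a 0.0545 and Jak2 0.0639 in SHP099 against WT). Over each gene's difference from its group mean, libraries of equal number had r of 0.492, -0.431 and 0.185 for M-Shp2-/- and WT. For SHP099 and WT the r were -0.041, -0.09 and 0.454. With 3 libraries in a group, each centred on their own mean, these r cannot show whether the numbers pair samples.

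Level order was compared on exon-union lengths and the shares of Stat5a and Jak2 in reads, all chosen after seeing the data. Stat4 stands on at most 62 reads, and 3 libraries in a group limit what the tests can pass.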
